A study of Mus musculus with 16 samples.

Results

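Gene expression after 12 h of CD3/CD28 stimulation was compared with that of unstimulated cells in control cells of the D10 line, on 2 arrays per time. The D10 line was derived from a mouse Th2 clone and grows in the presence of interleukin-2. The comparison held 4 of the 16 arrays of the series, taken by their labels. It covered the 7395 of 18138 genes that were above background, meaning brighter than the negative controls at a detection p below 0.01, on 2 or more of the 16 arrays. The control cells received no inhibitor, and the methods describe them as left untreated, while a solvent is named elsewhere in the study. Stimulation was with biotinylated antibodies to mouse CD3 and CD28, linked by streptavidin, for 0, 2, 6 or 12 h. The other 8 arrays held cells pre-incubated for 1 h with 10 µM Akti1/2, an inhibitor of the kinase Akt, and entered only the normalisation, the filter and the estimate of the spread. Whether the 2 arrays of a group came from separate cultures is not stated, so that the p-values measure the spread between these arrays, which may be technical.

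Crosslinking of CD3 on a T cell starts signalling through the T cell receptor, and CD28 adds the costimulatory signal. Calcium, Ras and protein kinase C pathways then activate the transcription factors NFAT, AP-1 and NF-κB, which act on cytokine genes. Th2 cells are the helper T cells known for interleukin-4, -5 and -13, under the control of the lineage factor Gata3. Activated T cells also grow in size, build ribosomes and enter the cell cycle.

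T cell markers were detected in these cells. Of 11 T cell marker genes on the array, 9 were tested, and the rest were too dim. None of the 9 was below background on all 4 arrays, and 8 did not pass the test of a change at 12 h. Cd3d, a chain of the T cell receptor complex, stood at log2 intensities of 12.75 and 12.71 at 0 h and 12.74 and 12.75 at 12 h. Gata3 stood at 12.22 and 12.24 at 0 h and 12.49 and 12.53 at 12 h (log2 difference 0.28, SE 0.12, adjusted p = 0.0952). That difference passed the test, as higher, with a variance trend and with quantile normalisation of uncorrected intensities. Cd3e, another chain, fell by 0.78 (adjusted p = 0.000208). Of 34 markers of CD8 T, NK, B, myeloid, dendritic and stromal cells on the array, 29 were left out as dim. The summed deposited intensity of all 34 was 0.0728% and 0.0785% of that of all genes at 0 h and 0.0723% and 0.0697% at 12 h. Background was not subtracted from these sums, so that the dim markers added background to them, and rises and falls of single markers can offset each other. Hba-a1, an alpha globin gene and 1 of these markers, lay above background on all 4 arrays, with 10.57 and 10.60 before stimulation and 9.12 and 9.19 after 12 h, and the marker Cd74 rose. The part of such cells in the other results was not tested. Correlations between the 2 arrays of a group across genes, which are not independent replicates, were 0.994 at 0 h and 0.9936 at 12 h, and 6359 to 6641 genes lay above background on the 4 arrays.

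At 12 h, 2055 genes (27.8% of those tested) differed from 0 h at an adjusted p under 0.05, of which 939 (12.7%) were higher and 1116 (15.1%) lower. Among the genes called, 49 rose by a log2 of 2 or more and 17 fell by as much, while the median rise was 0.65 and the median fall was -0.64. The median log2 difference over all genes tested was -0.01. Quantile normalisation gives all arrays the same distribution, so a shift of most genes together could not be seen. With arrays scaled to the same mean instead, the median was -0.06, and 37.6% of the genes called were higher, against 45.7%. Each chip held 1 array of each group, and all 2055 genes moved the same way within both chips. The calls were made from these same arrays, so this agreement is no independent support for them. Of the genes named below, Csf1, Bach2 and Ccnf lay above background on 1 of the 2 arrays at 12 h, and Tnfsf14, Socs3 and Rgs16 on 1 of the 2 at 0 h. With any 1 of the 4 arrays left out, 1296 to 1394 genes were called (1296 without replicate 1 at 12 h, 1394 without replicate 2 at 12 h, 1313 without replicate 1 at 0 h and 1362 without replicate 2 at 0 h). In RNA from many cells, a change in the share of cells that express a gene and a change in its amount per cell cannot be told apart.

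**Figure D1:**
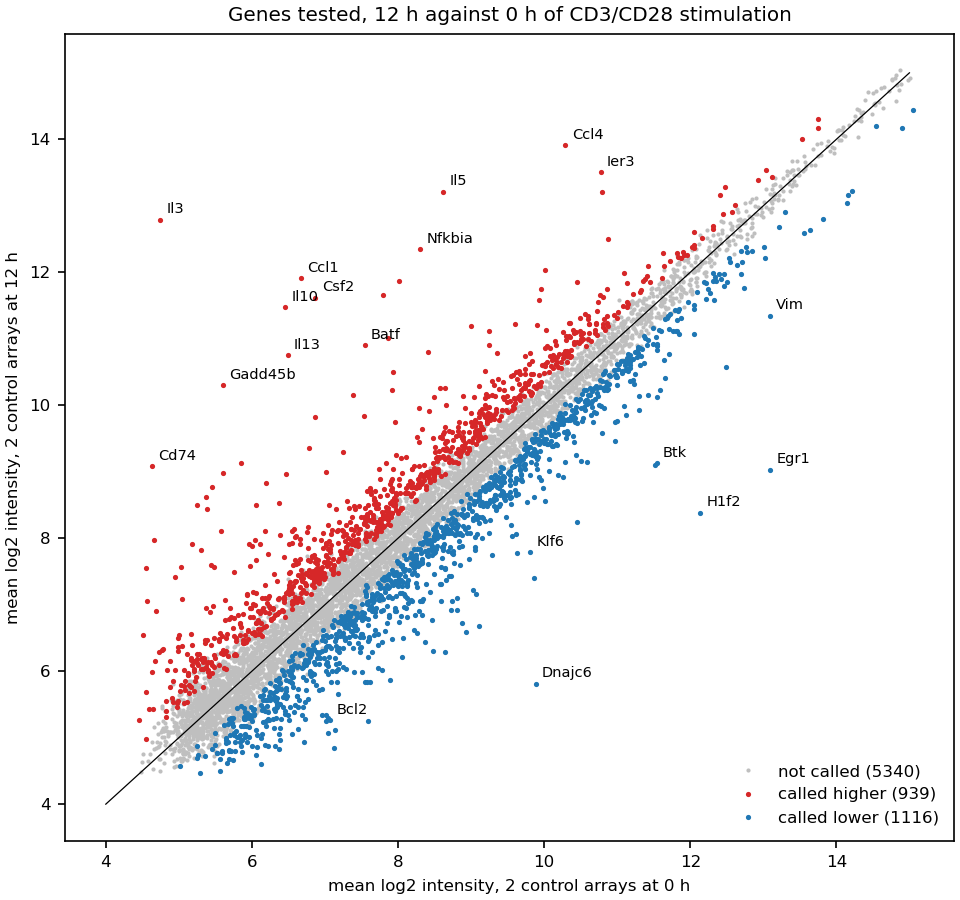
Mean log2 intensity of each of the 7395 genes tested on the 2 control arrays at 0 h (x axis) and the 2 at 12 h (y axis), with the line of equality; red points are the 939 genes called higher and blue points the 1116 called lower. Il3, Ccl1, Il10 and Csf2 lie farthest above the line, and Egr1, H1f2 and Dnajc6 lie farthest below it.

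Cytokine genes were among the largest rises. Of 22 cytokine genes tested, 17 rose, 1 fell and 4 did not pass the test, with a median log2 difference of 1.66 (1.47 with dim genes at their bound), against -0.01 over all genes. Interleukin-3, a growth factor for myeloid and mast cell precursors, was not above background on either array at 0 h (4.80 and 4.69) and reached 12.81 and 12.77 at 12 h. For a gene not above background in one group, only a bound is given, here the 12 h mean against the higher, per 0 h array, of the gene's own signal and the lowest signal among genes above background. Interleukin-3 was thus at least 142.3-fold higher (adjusted p = 3.75e-10). The 12 h arrays also exceeded those at 6 h, which stood at 11.83 and 12.05 (adjusted p = 0.02725), a call lost with any 1 of those 4 arrays left out.

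Among the Th2 cytokines, interleukin-5, a growth factor of eosinophils, went from 8.61 and 8.64 to 13.34 and 13.08. Its log2 rise was 4.59 (SE 0.26, adjusted p = 9.89e-08), or 24.1-fold. Interleukin-13, which acts on epithelium and macrophages, stood at 6.20 and 6.78 at 0 h and 10.89 and 10.62 at 12 h, a rise of 4.26 (SE 0.43, adjusted p = 1.92e-05). Interleukin-4, the cytokine that drives Th2 differentiation, was already abundant at 0 h, at 9.94 and 9.86. It reached 11.24 and 11.19 at 12 h, a rise of 1.31 (SE 0.14, adjusted p = 2.66e-05). The arrays of the 2 times did not overlap for any of these genes.

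Il10, encoding an anti-inflammatory cytokine, stood at 6.65 and 6.26 at 0 h and 11.83 and 11.11 at 12 h, a rise of 5.02 (SE 0.21). Its 12 h arrays differed by more than its 0 h arrays, and its rise was 4.46 within chip 1 and 5.58 within chip 2. Csf2 encodes GM-CSF, a growth factor of granulocytes and macrophages, and went from 6.77 and 6.97 to 11.56 and 11.67 (rise 4.75, SE 0.20). Tnf rose by 2.77 (SE 0.24), from 7.38 and 7.39 to 10.07 and 10.23. The related ligand genes Tnfsf14 (rise 3.31) and Ltb (1.69) were also higher, and Lta, which was not above background at 0 h, was at least 3.819-fold higher. Csf1, encoding the macrophage growth factor M-CSF, was the cytokine that fell, from 7.14 and 7.04 to 5.95 and 5.71 (log2 difference -1.26, SE 0.16).

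Of 8 chemokine genes tested, 7 rose and 1 fell. Ccl1, a ligand of the Th2 receptor CCR8, stood at 6.52 and 6.82 at 0 h and 11.86 and 11.98 at 12 h. This was the largest rise among genes measured above background on all 4 arrays (5.25, SE 0.18, adjusted p = 1.31e-09). Ccl3 and Ccl4, inflammatory chemokines, rose by 3.86 (SE 0.12) and 3.62 (SE 0.14). Ccl4 reached 13.94 and 13.89. Cxcl2, a ligand for the neutrophil receptor CXCR2, was at least 5.024-fold higher, with no 0 h array above background. Ccl17, a ligand of CCR4, went the other way, from 8.06 on both arrays to 6.32 and 6.12 (log2 difference -1.84, SE 0.17, adjusted p = 6.76e-06). The median log2 difference of the 8 was 2.39, or 1.53 with dim genes at their bound.

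**Figure D2:**
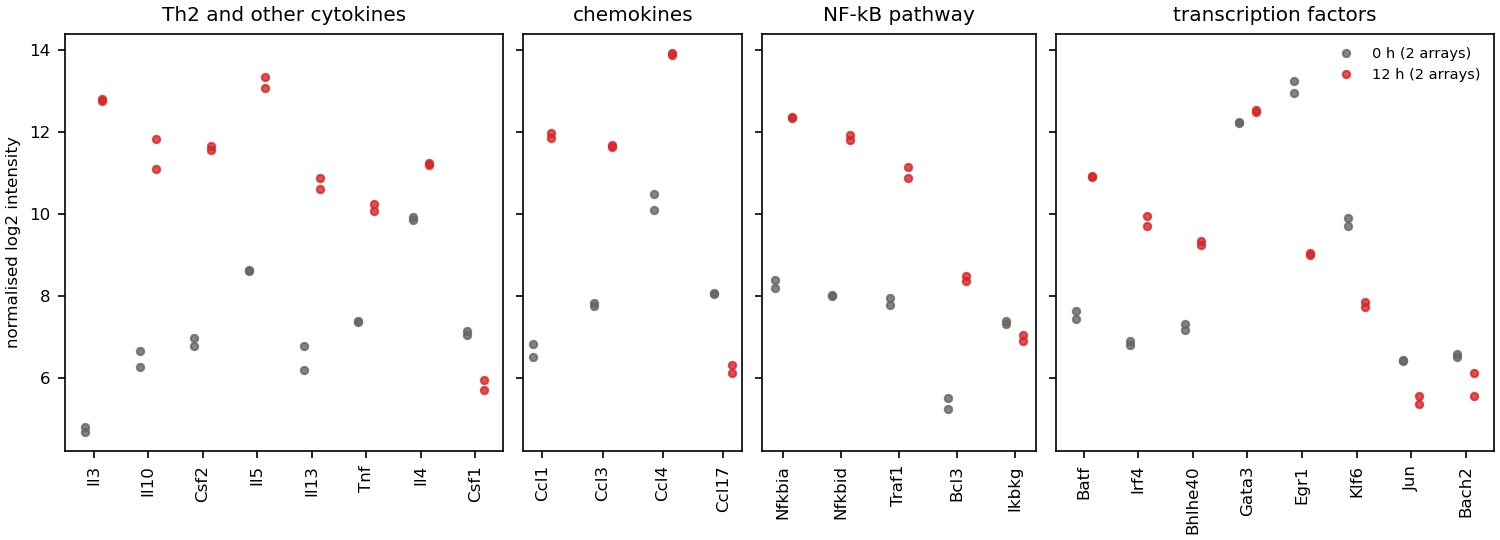
Normalised log2 intensity of named cytokine, chemokine, NF-κB pathway and transcription factor genes on the 2 control arrays at 0 h (grey) and the 2 at 12 h (red), 1 point per array. The grey and red points are separate for Il3, Il5, Ccl1 and Nfkbia, which lie higher at 12 h, and for Csf1, Ccl17, Egr1 and Klf6, which lie lower.

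The genes for interleukin-4, -13, -5, GM-CSF and interleukin-3 share a stretch of mouse chromosome 11, and their neighbours were read beside them by the positions of GRCm38.p6. From Kif3a to Acsl6 the stretch held 14 genes of the array, of which 10 were tested. Kif3a, next to Il4, differed by 0.04 (adjusted p = 0.85), and Rad50, which lies between Il13 and Il5 and holds the known locus control region of the Th2 cytokines, by -0.08 (adjusted p = 0.608). Irf1, an interferon regulatory factor beyond Il5, rose by 1.12 (adjusted p = 1.83e-05), and P4ha2, a collagen prolyl hydroxylase, fell by 0.61 (adjusted p = 0.00498). The rises of 4.59 for Il5 and 4.26 for Il13 thus stood on either side of a gene that did not pass the test.

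Genes of the NF-κB pathway formed the next large group. Of 28 tested, 15 rose, 2 fell and 11 did not pass the test (median log2 difference 0.73, or 0.58 with dim genes at their bound). The count of rises was 14 with any 1 of the 4 arrays left out. The inhibitors led. Nfkbia, encoding IκBα, which holds NF-κB in the cytoplasm, went from 8.40 and 8.20 to 12.36 and 12.34, a rise of 4.05 (SE 0.17, adjusted p = 9.81e-09). Nfkbid, a nuclear member of the same family, rose by 3.86 (SE 0.16), from 8.02 and 8.00 to 11.94 and 11.81. Tnfaip3, the A20 deubiquitinase that restrains the pathway, rose by 2.15 (SE 0.21), and the adaptor gene Traf1 by 3.15 (SE 0.15).

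The subunits of the factor itself moved unequally. Relb rose by 1.89 (SE 0.16), Nfkb2 by 1.61 (SE 0.28) and Nfkb1 by 0.98 (SE 0.16). Rel was not above background at 0 h and was at least 1.621-fold higher. Rela stood at 10.58 and 10.70 at 0 h and 10.60 and 10.57 at 12 h (log2 difference -0.06, adjusted p = 0.834). Bcl3, an atypical IκB protein, was at least 6.938-fold higher. Ikbkg, the regulatory subunit of the IκB kinase, fell by 0.37, a call lost with any 1 of the 4 arrays left out.

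Promoter sequences of 3 genes that rose are given to show where motifs of the activated factors lie, as the 250 bases upstream of the RefSeq start in GRCm38.p6. They are the leading chemokine gene, the leading inhibitor gene and a Th2 cytokine gene. Ccl1 lies on the minus strand at chr11:82179813-82180062, Nfkbia on the minus strand at chr12:55492648-55492897, and Il13 on the minus strand at chr11:53634703-53634952. Capitals mark matches on either strand to GGGA and TTCC with 2 bases of any kind between them (NF-κB), TGANTCA (AP-1) and TGGAAAA (NFAT).
Ccl1 promoter: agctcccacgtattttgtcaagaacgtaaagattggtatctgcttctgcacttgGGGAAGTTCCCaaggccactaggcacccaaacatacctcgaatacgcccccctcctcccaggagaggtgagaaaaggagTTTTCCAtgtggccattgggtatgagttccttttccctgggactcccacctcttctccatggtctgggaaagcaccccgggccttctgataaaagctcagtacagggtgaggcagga
Nfkbia promoter: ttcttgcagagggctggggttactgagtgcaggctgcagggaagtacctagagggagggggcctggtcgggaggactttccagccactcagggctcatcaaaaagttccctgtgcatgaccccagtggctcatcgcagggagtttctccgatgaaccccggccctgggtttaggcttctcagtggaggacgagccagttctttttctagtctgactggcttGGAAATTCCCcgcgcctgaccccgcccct
Il13 promoter: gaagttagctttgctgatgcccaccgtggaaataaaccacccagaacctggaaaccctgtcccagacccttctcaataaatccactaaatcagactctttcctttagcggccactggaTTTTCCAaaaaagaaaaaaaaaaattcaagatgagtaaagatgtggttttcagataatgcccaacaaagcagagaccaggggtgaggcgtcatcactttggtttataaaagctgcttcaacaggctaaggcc
Counted from the start, the NF-κB motif began at -196 in Ccl1, where matches on the 2 strands overlap, and at -29 in Nfkbia, the gene with a 16.5-fold rise. The NFAT motif began at -117 in Ccl1 and at -132 in Il13.

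Over windows of 300 bases, from 250 before to 50 after the start, the NF-κB motif was found in 1.47% of all 32851 mouse promoters. Its share was 1.5% in the 7046 promoters of tested genes, 2.99% in the 904 of genes called higher and 0.702% in the 1139 of genes called lower. Among genes that rose by a log2 of 1 or more it was 4.82% of 166 promoters. In the cytokine list 17.4% of 23 promoters held it, and in the chemokine list 50% of 6. The NFAT motif was in 7.83% of the promoters of genes that rose by a log2 of 1 or more and in 1.51% of those that fell as much, against 4.6% of tested genes and 6.73% of all promoters. The AP-1 motif was absent from the 3 sequences. Its share was 7.83% in promoters of genes that rose by a log2 of 1 or more. In those that fell as much it was 6.03%. Among genes called higher it was 5.42% and among those called lower 7.2%, against 5.07% of tested genes and 7.81% of all promoters. These shares describe letters in a window and not binding.

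Among immediate early genes, which T cells switch on within minutes of stimulation, the 12 h pattern was mixed. Their share called was 41.7%, against 27.8% of all genes tested. Of 12 tested, 2 rose and 3 fell, and these counts were the same with any 1 of the 4 arrays left out. Egr1, a zinc finger factor of this class, stood at 13.24 and 12.95 at 0 h and 9.05 and 9.01 at 12 h. It was thus 16.8-fold lower at 12 h (log2 difference -4.07, SE 0.29, adjusted p = 7.85e-07). On the arrays at 2 h it stood at 9.02 and 9.66, and at 6 h at 8.29 and 8.49. Klf6, a Krüppel-like factor, fell by 2.02 (SE 0.17), from 9.90 and 9.72 to 7.86 and 7.72. Jun, a subunit of AP-1, lay below background at 12 h and was at least 1.636-fold lower.

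Junb, another AP-1 subunit gene, rose by 1.66 (SE 0.15), from 9.97 and 9.88 to 11.68 and 11.49, and Fos, which did not pass the test, stood at 6.60 and 6.91 at 0 h and 5.81 and 6.11 at 12 h (adjusted p = 0.0737). Ier3, an early response gene linked to survival, rose by 2.73 (SE 0.18) to 13.70 and 13.31. Myc, the growth-promoting factor, stood at 7.62 and 7.31 at 0 h and 7.47 and 7.14 at 12 h (log2 difference -0.16, SE 0.18, adjusted p = 0.555), so that the 2 groups overlapped. Klf2, a quiescence factor of T cells, was too dim to be tested.

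The transcription factors of helper T cell lineages held 9 rises and 4 falls among 24 tested, and 9 rises with any 1 of the 4 arrays left out. Batf and Irf4, which bind DNA together at T cell genes, led. Batf went from 7.65 and 7.44 to 10.92 and 10.90, a rise of 3.36 (SE 0.17, adjusted p = 3.74e-08). Irf4 went from 6.81 and 6.90 to 9.96 and 9.70, a rise of 2.97 (SE 0.20). Bhlhe40, a regulator of cytokine production in helper T cells, rose by 2.05 (SE 0.24), and Irf8 by 1.73 (SE 0.17). Bcl6, the factor of follicular helper T cells, was not above background at 0 h and was at least 1.876-fold higher. Bach2, a repressor of effector genes, fell by 0.70 and Nfatc1 by 0.79. Id3 fell by 0.92, a call lost without replicate 2 at 12 h. Maf, another Th2 factor, was too dim to be tested.

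Of 22 cytokine and chemokine receptor genes tested, 9 rose and 3 fell (54.5% called, against 27.8% of all genes tested). Of the falls, Il17rb was above background on none of the 4 arrays. Cxcr6 was above background on no 12 h array and was at least 1.126-fold lower. All 3 chains of the interleukin-2 receptor were among the rises. Il2ra, the alpha chain CD25, went from 7.83 and 7.99 to 10.31 and 10.15, a rise of 2.32 (SE 0.22, adjusted p = 1.19e-05). Il2rb rose by 1.21 (SE 0.23) and Il2rg by 1.01. Il12rb1, a chain of the interleukin-12 receptor, stood at 6.57 and 6.46 at 0 h. It was as low after 6 h (6.54 and 6.52) and reached 7.93 and 7.89 after 12 h. Its rise was 1.39 from 0 h and 1.38 from 6 h (adjusted p = 0.00023 and 0.000757). Ifngr1, the ligand-binding chain of the interferon-γ receptor, fell by 1.03 (SE 0.13), while its partner Ifngr2 rose by 0.99.

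Among 16 costimulatory and inhibitory receptor genes tested, 6 rose and none fell, also with any 1 of the 4 arrays left out (5 or 6 rises). Of these members, 37.5% were called, against 27.8% of all genes tested. Tnfrsf18, encoding the costimulatory receptor GITR, rose by 2.02 (SE 0.14) to 12.06 and 12.00. Ctla4, the inhibitory receptor for the CD28 ligands, stood at 9.25 on both arrays at 0 h and at 11.16 and 11.08 at 12 h, a rise of 1.87 (SE 0.13). Cd69, an early activation marker, stood at 7.89 and 7.60 at 0 h and 9.15 and 8.94 at 12 h, a rise of 1.30 (SE 0.17). Its arrays at 2 h, at 11.16 and 10.98, were the highest. Cd28 itself differed by -0.01.

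The proteins next to the receptor held 3 rises and 6 falls among 27 genes tested. The share called was 33.3%, against 27.8% of all genes tested. Prkcq, the protein kinase C isoform of the T cell synapse, fell from 9.56 and 9.53 to 8.27 and 8.12 (log2 difference -1.35, SE 0.11, adjusted p = 2.15e-06). Ptpn22, a phosphatase that damps receptor signalling, fell by 1.16 (SE 0.20). The kinase genes Lck and Zap70 differed by -0.19 and -0.05 and did not pass the test. Ptpn6, the phosphatase SHP-1, rose by 0.69 (SE 0.10). The 3 rises became 2 without replicate 2 at 12 h and 1 without any other of the 4 arrays.

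Inhibitors of signalling that are made in response to it were split, with 7 rises and 6 falls among 21 tested. Gadd45b, a stress protein that acts on MAP kinase pathways, was not above background at 0 h (5.54 and 5.67) and stood at 10.32 and 10.28 at 12 h, at least 25.31-fold higher. Socs3, a suppressor of cytokine receptor signalling, went from 5.66 and 5.56 to 9.02 and 8.94 (rise 3.37, SE 0.23). Rgs16, which speeds the inactivation of G proteins, rose by 3.24 (SE 0.23), and another member of its family, Rgs1, fell by 1.48 (SE 0.13). Tob1, an antiproliferative protein of resting T cells, fell by 1.81 (SE 0.16), from 9.08 and 8.97 to 7.01 and 7.42. The 6 falls became 3 without replicate 1 at 12 h.

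Among 30 apoptosis regulators tested, 7 rose and 6 fell (43.3% called, against 27.8% of all genes tested). Members of the Bcl-2 family moved in opposite directions. Bcl2a1d, a prosurvival gene, went from 5.87 and 5.81 to 9.01 and 9.26, a rise of 3.29 (SE 0.20, adjusted p = 2.12e-07). Copies of this gene are nearly identical in the mouse, so which copy was measured is uncertain. Bcl2l1, encoding Bcl-xL, rose by 1.54 (SE 0.18). Bcl2 was above background at 0 h, at 6.87 and 7.28, and not at 12 h, at least 2.572-fold lower. Bbc3, encoding the killer protein PUMA, fell by 1.81 (SE 0.11), from 8.77 and 8.69 to 6.88 and 6.96. The death receptor gene Fas was at least 7.285-fold higher, from below background at 0 h to 8.45 and 8.56, and the ligand gene Tnfsf10 at least 2.404-fold higher. The 6 falls became 4 with any 1 of the 4 arrays left out. Of 6 cytotoxic granule genes, Serpinb6b, a serpin, rose by 2.50 (SE 0.26), Srgn, the granule proteoglycan serglycin, by 0.91, and Lamp1 fell by 0.44, a call lost with any 1 array left out.

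Many genes of ribosome biogenesis rose. Of 58 tested, 28 rose and none fell, with a median log2 difference of 0.38. Polr1c, a subunit of RNA polymerases I and III, went from 9.16 and 9.33 to 10.88 and 10.95, a rise of 1.67 (SE 0.16, adjusted p = 1.27e-05). Ppan, a 60S assembly factor, rose by 1.08 (SE 0.13), and Nop56, a core protein of box C/D ribonucleoproteins, by 0.89 (SE 0.14). With any 1 of the 4 arrays left out, 14 to 18 members were called, and none of them was lower. Of 68 mitochondrial ribosomal protein genes, 30.9% were called, against 27.8% of all genes tested. There were 1 fall and 20 rises, among them Mrps6 and Mrpl35 (0.81 each). Their count became 9 or 10 with any 1 of the 4 arrays left out. By contrast, 52 of 55 cytoplasmic ribosomal protein genes did not pass the test, and the median of the 55 was 0.04.

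Of the protein production and quality control lists, the chaperones had 32.4% of members called, translation factors 20.4% and proteasome subunits 14.6%, against 27.8% of all genes tested. Among 49 translation factors, 8 rose and 2 fell, and the rises became 4 to 6 with any 1 array left out. Among 41 proteasome genes 6 rose, among them Psmb10, an immunoproteasome subunit (0.78, SE 0.12), and 3 to 6 rose with 1 array left out. Among 37 chaperones 11 rose and 1 fell. Dnajb9, a cochaperone of the endoplasmic reticulum, rose by 1.04 (SE 0.22), from 6.42 and 6.70 to 7.65 and 7.54. Hspa8, the constitutive heat shock cognate protein, stood at 13.94 and 13.57 at 0 h and 14.31 on both arrays at 12 h (rise 0.55, SE 0.16, adjusted p = 0.021). The Hspa8 call was lost without replicate 1 at 12 h, replicate 2 at 12 h or replicate 2 at 0 h. The chaperone count became 4 to 7 with any 1 array left out. Of 67 oxidative phosphorylation genes, 4.48% were called, below the 27.8% of all genes tested. The complex I subunit gene Ndufb7 rose and Ndufv3 and Ndufa9, of the same complex, fell. With any 1 array left out, 0 or 1 of them rose and 0 or 1 fell.

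**Figure D3:**
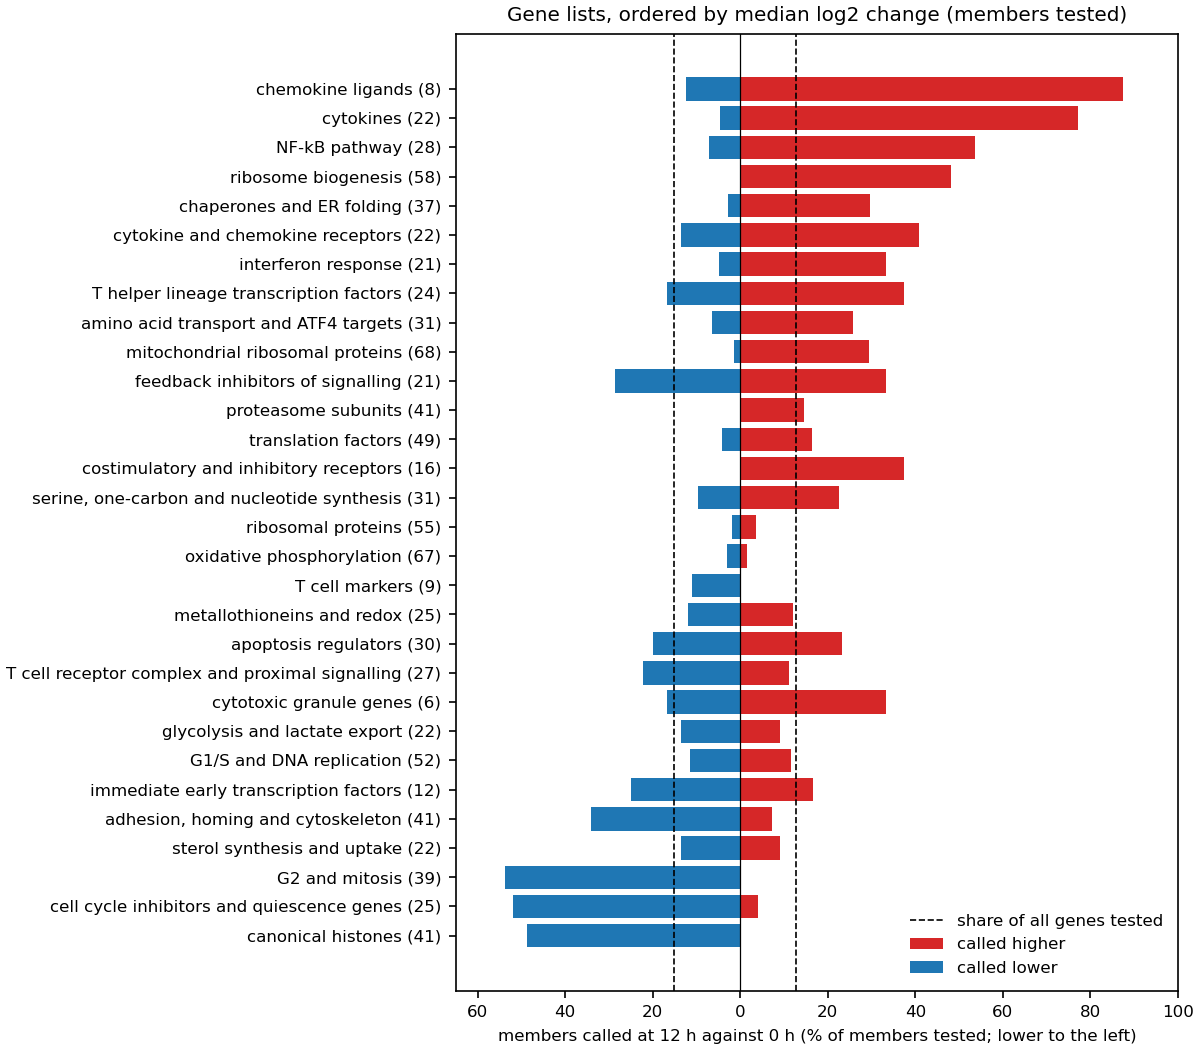
Share of the tested members of each gene list with 6 or more members tested called higher (red, to the right) and lower (blue, to the left) at 12 h against 0 h, with the share of all 7395 genes as dashed lines (12.7% higher and 15.1% lower) and the number of members tested in brackets. Chemokines, cytokines and the NF-κB pathway lie at the top, and the G2 and mitosis genes, the cell cycle inhibitors and the histones at the bottom.

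Of 52 genes of G1/S and DNA replication, 6 rose, 6 fell and 40 did not pass the test (median log2 difference -0.07). The share called, 23.1%, lay near the 27.8% over all genes tested. Ccne1, encoding a cyclin of the G1/S transition, rose by 0.57 (adjusted p = 0.00265), and its paralog Ccne2 by 0.75 (adjusted p = 0.00892). The Ccne2 call was lost without replicate 1 at 12 h or replicate 2 at 0 h. Mcm3, a subunit of the replicative helicase, fell from 10.45 and 10.20 to 9.58 and 9.57 (log2 difference -0.75, SE 0.13). The 6 rises became 1 to 3 and the 6 falls 3 to 5 with any 1 of the 4 arrays left out.

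Of 39 genes of G2 and mitosis tested, 21 were lower, none was higher and 18 did not pass the test, with a median log2 difference of -0.42. Ccnf, encoding an F-box protein of G2, fell by 1.21 (SE 0.20), from 6.90 and 6.95 to 5.49 and 5.94. Ncaph, a condensin subunit, stood at 10.64 and 10.65 at 0 h and 9.84 and 9.87 at 12 h, a fall of 0.79 (SE 0.10, adjusted p = 0.00014). Cdk1 and its partner Ccnb1, the kinase that starts mitosis, differed by -0.01 and -0.16 and did not pass the test. With any 1 of the 4 arrays left out, 12 to 15 members were lower and none higher.

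Of 25 cell cycle inhibitors and quiescence genes, 13 were also lower and 1 was higher. Txnip, a glucose-sensitive inhibitor of thioredoxin, fell by 1.89 (SE 0.21), from 8.87 and 8.75 to 6.98 and 6.86. Ypel3, linked to growth arrest, fell by 1.85 (SE 0.15). Cdkn1b, encoding the inhibitor p27, was too dim to be tested. The 13 falls became 9 without replicate 1 at 12 h, and 10 to 12 without another of the 4 arrays.

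The canonical histone genes, whose products package newly made DNA, held 20 falls and no rise among 41 tested (median log2 difference -0.46, against -0.01 over all genes), and 17 to 19 falls with any 1 array left out. H1f2, a linker histone gene, had the largest fall of the list. It stood at 12.18 and 12.08 at 0 h and at 8.35 and 8.41 at 12 h (log2 difference -3.75, SE 0.10, adjusted p = 3.75e-10), 13.5-fold lower. Its arrays at 2 h (12.20 and 12.14) lay at the level of 0 h, and those at 6 h at 11.08 and 10.99. H2bc4, an H2B gene, stood at 8.18 and 8.49 at 0 h and 7.07 and 7.12 at 12 h (log2 difference -1.24, SE 0.26). H2ac21, an H2A gene, was lower by 2 h, at 8.92 and 9.22 from 10.46 and 10.54 at 0 h. It stood at 9.22 and 9.09 at 12 h. Against 0 h, 9 histone genes of the list were lower and 4 higher at 2 h, and 10 lower and 8 higher at 6 h. Histone genes have near-identical copies, and most of their transcripts lack the poly(A) tail from which the labelled RNA is usually primed, so single members are uncertain.

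Promoters of 2 of these genes are given with the motifs of cell cycle genes in capitals, CCAAT (the CCAAT box), TTTGAA (the cell cycle homology region) and TTTNGCGC (E2F), on either strand. H1f2 lies on the plus strand at chr13:23738557-23738806. Ccnf, on the minus strand at chr17:24251410-24251659, was chosen after its values were seen, as the G2 gene with the largest fall whose 250 bases hold the first 2 motifs.
H1f2 promoter: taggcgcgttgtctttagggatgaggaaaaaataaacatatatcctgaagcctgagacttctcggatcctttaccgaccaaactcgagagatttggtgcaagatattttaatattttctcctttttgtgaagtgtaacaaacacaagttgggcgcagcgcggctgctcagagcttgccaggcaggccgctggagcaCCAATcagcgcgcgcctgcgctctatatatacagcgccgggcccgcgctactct
Ccnf promoter: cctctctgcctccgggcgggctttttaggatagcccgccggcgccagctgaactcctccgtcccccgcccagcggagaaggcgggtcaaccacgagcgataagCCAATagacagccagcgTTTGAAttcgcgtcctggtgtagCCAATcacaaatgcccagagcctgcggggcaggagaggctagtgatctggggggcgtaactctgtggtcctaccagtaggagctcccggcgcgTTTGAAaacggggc
Counted from the start, the CCAAT box of H1f2 began at -54. In Ccnf the CCAAT box began at -147 and -107, and the cell cycle homology region at -130 and -14. In windows of 300 bases, the cell cycle homology region was found in 76.5% of the 34 promoters of tested G2 and mitosis genes, against 12.2% of tested genes and 17.9% of all promoters. The CCAAT box was in 73.5% of them and in 80.6% of 36 histone promoters, against 38.8% of tested genes and 37.4% of all promoters. The E2F motif was in 27.8% of the histone promoters and 18.8% of 48 G1/S promoters, against 2.74% of tested genes and 1.38% of all promoters.

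Between 6 and 12 h, 1004 genes differed (13.6% of those tested), of which 513 (6.94%) were higher and 491 (6.64%) lower at 12 h. This comparison shares the 12 h arrays, but not the 0 h arrays, with the comparison above. With any 1 of its 4 arrays left out, 400 to 508 genes were called (400 without replicate 1 at 12 h, 508 without replicate 2 at 12 h, and 498 without either 6 h array). Against 2 h, 2091 genes differed (28.3%), of which 1071 (14.5%) were higher and 1020 (13.8%) lower at 12 h. The total became 1218 without replicate 1 at 12 h, 1408 without replicate 2 at 12 h, 1642 without replicate 1 at 2 h and 1278 without replicate 2 at 2 h.

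Many sterol synthesis genes rose after 6 h. Of 22 tested, 13 were higher at 12 h than at 6 h and none lower. Against 0 h, 2 were higher, 3 lower and 17 did not pass the test. The share called against 0 h, 22.7%, lay near the 27.8% of all genes tested. The 3 falls from 0 h became 1 without replicate 2 at 0 h or replicate 2 at 12 h, and the 2 rises became 1 without replicate 1 at 12 h. Mvd, the decarboxylase of the mevalonate pathway, went from 9.27 and 9.57 at 0 h through 8.58 and 8.64 to a low of 7.43 and 7.39 at 6 h, then back to 9.12 and 9.05. Its rise from 6 h was 1.68 (adjusted p = 1.43e-05), and its difference from 0 h was -0.33 (adjusted p = 0.0561). That difference passed the test under 6 alternatives, namely both stricter filters on dim genes, scaling to one mean, a variance trend, quantile normalisation of uncorrected intensities, and without replicate 1 at 0 h. Msmo1, a sterol demethylase, followed the same course and rose from 6 h by 1.63 (adjusted p = 0.00116). Acat2, which makes the first precursor of the pathway, rose by 1.42 and Pmvk by 1.34. Scd1, which desaturates fatty acids, rose by 1.46, from 8.01 and 8.06 at 6 h. The 13 genes became 8 without replicate 1 at 12 h, 9 without replicate 2 at 12 h or replicate 1 at 6 h, and 10 without replicate 2 at 6 h.

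Some genes of glycolysis and of G1/S were also higher at 12 h than at 6 h. Among 22 glycolysis and lactate export genes, 8 were higher, among them Pfkl, the liver-type phosphofructokinase (1.07), and Slc2a3, a glucose transporter (0.83). That count became 4 without replicate 1 at 12 h and 7 without each of the other 3 arrays. Among 52 G1/S genes, 12 were higher. Ccne1 rose from 6.62 and 6.44 to 7.56 and 7.62, by 1.06 (adjusted p = 0.000146). E2f1, the transcription factor of S phase entry, rose from 8.77 and 8.92 to 9.77 and 9.64, by 0.86 (adjusted p = 0.00193), and stood at 9.68 and 9.73 at 0 h. The 12 genes became 6 without replicate 1 at 6 h, 8 without replicate 2 at 12 h and 9 without either other array. In the G2 and mitosis list the checkpoint gene Bub3 was lower. The kinesin gene Kif18a passed the test as higher, with no array above background at 6 or 12 h. Both calls were lost with some single arrays left out. Against 0 h, 2 glycolysis genes rose and 3 fell, or 22.7% called, near the 27.8% of all genes tested.

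**Figure D4:**
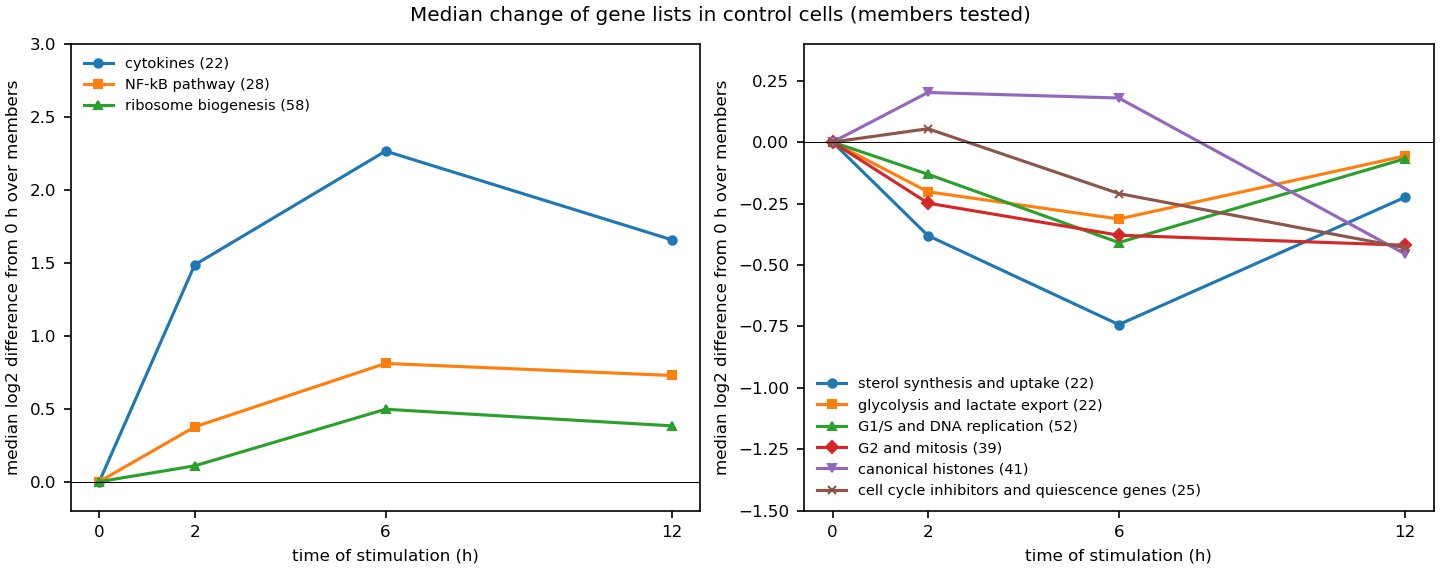
Median log2 difference from 0 h over the tested members of 9 gene lists at 2, 6 and 12 h in control cells, with the number of members in brackets; all points share the 0 h arrays. The medians of cytokines, NF-κB pathway and ribosome biogenesis (left) stand above 0 at every time. Those of sterol synthesis and G1/S genes (right) are lowest at 6 h, and that of the histones is below 0 at 12 h only.

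Some histone genes fell in the same interval, while H2ac21 did not pass the test there (log2 difference -0.15, limma adjusted p = 0.686). Of 41 tested, 11 were lower at 12 h than at 6 h and none higher, and 10 were lower with any 1 of the 4 arrays left out. H1f2 fell by 2.65 (adjusted p = 3.42e-08) and H2bc4 by 1.91, from 9.14 and 8.87 at 6 h. Cytoskeletal and adhesion genes also fell, 10 of 41 with none higher, among them Vim, the intermediate filament vimentin (fell by 1.07), and Cfl1, the actin-severing protein cofilin (fell by 1.04). That count became 5 to 7 with any 1 array left out. Against 0 h, 14 of the 41 were lower and 3 higher, the latter 1 or 2 with any 1 array left out. Vim went from 13.14 and 13.03 to 11.32 and 11.38 (log2 difference -1.74, SE 0.13). Emp1, an epithelial membrane protein, fell by 2.35 (SE 0.13), and Icam1, the ligand of the integrin LFA-1, rose by 2.56 (SE 0.13).

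Several activation genes were past their highest level. Among cytokines 6 were lower at 12 h than at 6 h (4 to 6 with any 1 array left out), among them Ltb (fell by 1.08) and Lif (fell by 0.97). Of 8 chemokines, Ccl1, Ccl3, Ccl17 and Cxcl2 were lower, although Ccl17 was highest at 0 h (8.06 on both arrays) and had not risen. Ccl1 fell by 1.32 (adjusted p = 0.0006115). That chemokine count became 1 without either 12 h array or replicate 2 at 6 h, and 2 without replicate 1 at 6 h. Cd69 fell by 1.16 (adjusted p = 0.000968) and Icam1 by 1.06. Ctla4 rose further, by 1.12 (adjusted p = 0.000226), and so did Cd320, the receptor for vitamin B12 bound to transcobalamin, by 1.45 (adjusted p = 0.00419).

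**Figure D5:**
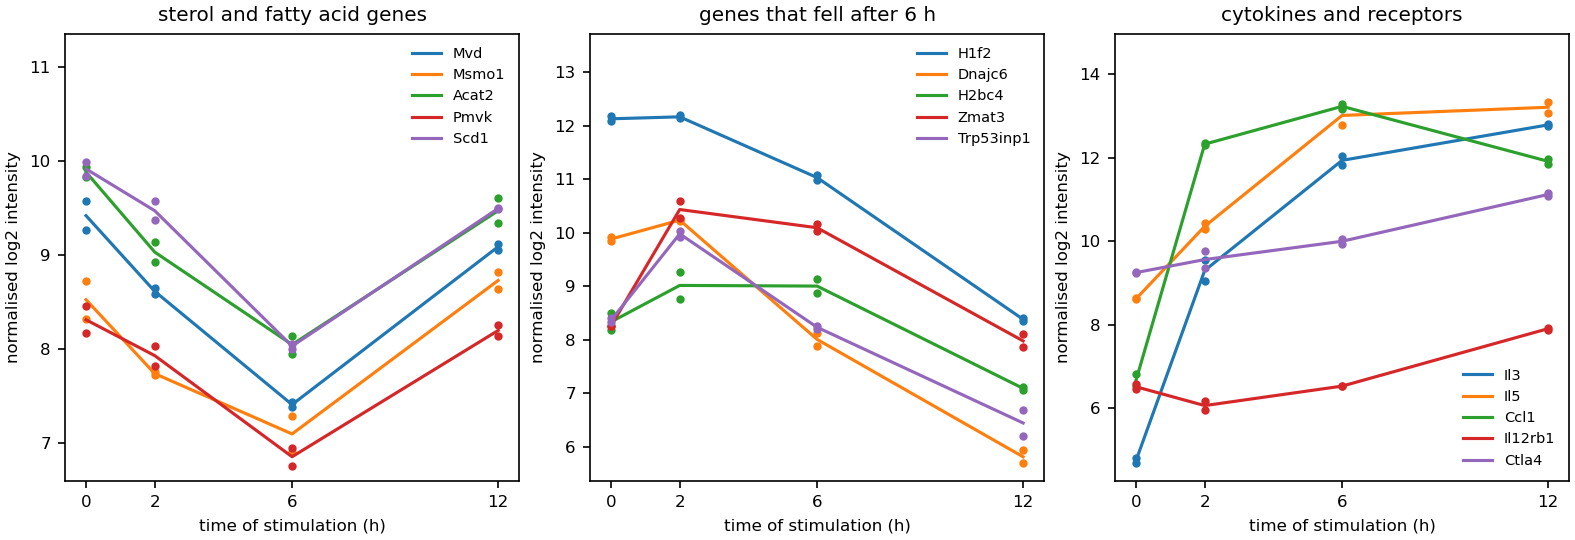
Normalised log2 intensity of 15 genes on the 8 control arrays at 0, 2, 6 and 12 h (points, 2 arrays per time) with a line through the group means. Sterol and fatty acid genes (left) are lowest at 6 h and higher again at 12 h, and genes that fell after 6 h (middle) are lowest at 12 h. On the right, the group means of Il3, Il5, Il12rb1 and Ctla4 are highest at 12 h and that of Ccl1 at 6 h. The Il5 arrays at 6 and 12 h overlap (log2 difference 0.20, limma adjusted p = 0.677).

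Among 31 genes of serine, one-carbon and nucleotide synthesis, 7 rose and 3 fell against 0 h. The share called was 32.3%, as it was for the amino acid transport genes and ATF4 targets below, near the 27.8% of all genes tested. Mthfd2, a mitochondrial folate enzyme, rose by 1.04 (SE 0.13), from 8.88 and 8.97 to 10.03 and 9.89, and Ctps, which makes CTP, by 0.75 (SE 0.10). The 7 rises became 3 without replicate 1 at 0 h, and the 3 falls became 0 without replicate 1 at 0 h or replicate 1 at 12 h and 1 without replicate 2 at 12 h. Among 31 amino acid transport genes and ATF4 targets, 8 rose and 2 fell, and the rises became 4 without replicate 1 at 12 h and 5 without replicate 1 at 0 h. The 2 falls became 0 without either of these arrays and 1 without replicate 2 at 12 h. Of 25 metallothionein and redox genes, 3 rose and 3 fell, and their share called, 24%, lay near that of all genes tested. Mt2 rose by 1.34 (SE 0.17), from 8.47 and 8.86 to 10.03 and 9.97. Mt1 stood at 14.86 and 14.76 at 0 h and 14.57 and 14.59 at 12 h (adjusted p = 0.229). Glrx, a glutaredoxin, fell by 1.27 (SE 0.13).

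Of 21 interferon response genes, 7 rose and 1 fell (38.1% called, against 27.8% of all genes tested). Gbp3, a guanylate-binding protein, was at least 4.549-fold higher, from below background at 0 h to 7.78 and 7.87 at 12 h. Tapbp, which loads peptide onto MHC class I, rose by 1.13 (SE 0.14). Usp18, which removes ISG15 from proteins, was above background on both 0 h arrays and on neither 12 h array, and was at least 1.542-fold lower. Cd74, the invariant chain of MHC class II, was not above background at 0 h (4.64 and 4.61) and stood at 8.998 and 9.18 at 12 h, at least 10.93-fold higher (adjusted p = 1.09e-08). It is also 1 of the markers of other cells. The class II chain gene H2-Eb1 stood at 8.998 and 9.15 at 0 h and 9.28 and 9.21 at 12 h (adjusted p = 0.258), and H2-Aa and H2-Ab1 were too dim to be tested.

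Several of the largest falls lay outside these lists. Dnajc6, encoding auxilin, a cochaperone that uncoats clathrin vesicles, stood at 9.93 and 9.84 at 0 h and at 5.69 and 5.94 at 12 h, 16.8-fold lower (log2 difference -4.07, SE 0.14, adjusted p = 1.31e-09). Its arrays at 2 h stood at 10.25 and 10.22 and at 6 h at 8.13 and 7.89. Btk, the kinase known from B cell receptor signalling, fell from 11.52 and 11.56 to 9.17 and 9.09 (log2 difference -2.41, SE 0.11). Klhl6, a ubiquitin ligase adaptor of lymphocytes, fell by 2.41 as well (SE 0.12). Cx3cr1, the fractalkine receptor, fell by 2.43 (SE 0.17), from 9.19 and 9.03 to 6.53 and 6.83. Neither Cx3cr1, a chemokine receptor gene, nor Dnajc6 was a member of the receptor or chaperone list. The counts of those lists leave them out. Acss1, a mitochondrial acetyl-CoA synthetase, fell by 2.21 (SE 0.11). Tktl1, a transketolase-like gene, was above background on both 0 h arrays and on no 12 h array, at least 3.662-fold lower.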

How the data were processed

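RNA of D10 cells was labelled and hybridised to 16 Illumina mouse arrays on 2 chips. The authors deposited bead intensities per gene and per control probe, without normalisation, background subtraction or detection p-values. From these intensities, neqc of limma 3.58.1 (R 4.3.3) subtracted the background estimated from the negative controls, added an offset of 16, normalised by quantiles and took log2. Genes were kept with a detection p under 0.01, computed against the negative controls, on at least 2 of 16 arrays. The 8 group means were fitted to all 16 arrays with lmFit and eBayes, and p-values were adjusted by Benjamini-Hochberg over 7395 genes at a threshold of 0.05. Adjusted p-values and SEs in the text are those of limma. The number of arrays limits the precision. Per the labels, groups were time and inhibitor. Symbols were brought up to date through Entrez IDs with the RefSeq table of GRCm38.p6, which also gave the promoter sequences. On simulated data with independent noise, 190 of 200 planted changes were recovered, with 18 calls that were not planted. The planted changes were of a log2 of 1 (90 of 100 recovered) or 2 (100 of 100). Smaller changes, such as the median rise of 0.65 and fall of -0.64 among genes called, were not planted, so their recovery was not tested. The members, gene lists and motifs were chosen with earlier results of these data known. Named genes were the largest rises and falls of all genes, within each list and after 6 h, plus a set of known T cell genes, and other genes were named after their values were seen. The alternatives were background correction, scaling, filters, chip and replicate blocks, the samples fitted, a variance trend, each array left out, and the J5 score of the study's methods. A second control probe table was not used. Some genes are not reported here.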

Additional observations from a re-analysis of the deposited data

How the results depend on the processing

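With any 1 of the 4 arrays left out, the genes called at 12 h against 0 h numbered 1296 to 1394 (585 to 632 higher and 704 to 762 lower). Against 6 h they numbered 400 to 508 (199 to 267 higher and 201 to 258 lower), and against 2 h 1218 to 1642 (604 to 861 higher and 614 to 781 lower). In these fits the group left with 1 array was assumed to vary like the others. A J5 score beyond 20, which compares mean intensities and is no test, picked 117 genes (68 higher and 49 lower), of which 85 were also called by limma. Every other alternative kept the 3 counts and their directions within 1.5 times, with 1817 genes without the filter and 2279 in a fit of only the 4 arrays for 12 h against 0 h. Whether the replicate numbers pair the arrays cannot be decided here. The differences between replicates 1 and 2 at 0 h and 12 h correlated across genes at -0.0048. Among the other groups such correlations ranged from -0.296 to 0.2639 (21 pairs). In the 12 h control group replicate 1 lay on the chip that held replicate 2 of the other groups. Numbering and chip thus cannot be told apart in the first correlation. With the replicate block, 2047 genes were called (939 higher and 1108 lower), and 987 against 6 h and 2068 against 2 h. Of 158 named genes chosen by the rules above and called at 12 h, 118 were called under every alternative. Genes named after their values were seen, such as Relb, Tnfaip3 and Cxcl2, are not in this count. The Myc log2 change at 12 h, which was not called, ranged from -0.3281 without replicate 1 at 12 h to 0.0015 without replicate 2 at 12 h, and the Pmvk log2 change at 12 h, also not called, from -0.2578 without replicate 1 at 0 h to 0.0301 without replicate 2 at 0 h. The cause of these changes was not tested. Genes near the background have only a bound, and 432 tested genes lay above it on none of the 4 arrays.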

Other observations

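Ebi3, which encodes the subunit shared by interleukin-27 and interleukin-35, was chosen after its values were seen. It was not above background at 0 h (4.48 and 4.64), 2 h (4.51 and 4.66) or 6 h (4.66 and 5.07) and stood at 7.12 and 6.98 at 12 h, at least 2.666-fold higher than at 0 h (limma adjusted p = 7.1e-07).

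Both of the following lists were also written after values were seen, and their counts support nothing beyond these arrays. Of all genes tested, 12.7% were higher and 15.1% lower at 12 h than at 0 h. Of 32 known targets of p53, the tumour suppressor that responds to DNA damage, 24 were tested, and 12 were lower and 1 higher at 12 h than at 0 h. Their median log2 difference from 0 h was 0.52 at 2 h, -0.08 at 6 h and -0.36 at 12 h. Trp53inp1, which promotes p53 activity, went from 8.40 and 8.33 at 0 h up to 9.93 and 10.04, then through 8.26 and 8.21 at 6 h down to 6.21 and 6.69. Mdm2, the ubiquitin ligase of p53, fell by 0.88 from 0 h to 12 h, and Fas was the member that rose.

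Of 22 hypoxia response genes tested, 6 rose and 3 fell, and their median was 0.06. The rises were led by Ankrd37 (2.38) and Hilpda, a lipid droplet protein (2.19), and included Vegfa, the vascular growth factor (1.01). Ldha and Pgk1, glycolytic enzymes of the same list, were not among the genes called.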
